A study of Homo sapiens with 6 samples.

Results

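SMC1 peaks of senescent IMR90 fibroblasts were compared with those of control cells of lower passage, to describe which cohesin positions were found in 1 condition only and which changed their rank among the positions of their own library. The members were all peaks of both SMC1 lists on chromosomes 1 to 22 and X, 27810 of the 65597 peaks in the 6 lists of the series. Of these, 14883 were control peaks and 12927 were senescent peaks. A control peak and a senescent peak were matched when they overlapped by at least 1 bp over their whole length, and no signal value entered the match. Peaks without a match are called control-only and senescent-only, and these names refer to the lists, not to the absence of cohesin from the DNA.

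IMR90 are human lung fibroblasts from a cell repository that stop dividing after prolonged passaging, a state called replicative senescence. The control library carries the p number 16 in its title and the senescent one the p number 34. The title with 34 names no treatment and was taken as senescent because the series design gives each antibody a single senescent sample of high passage. All 6 libraries share the isolate name I79, and the other 4 are the SMC1 library of ICM-treated cells (ICM, or inflachromene, binds HMGB proteins) and the 3 CTCF libraries, used only to describe the peaks. In CUT&Tag, an antibody directs a transposase to the chromatin that its target occupies, and the fragments released there are sequenced. With 1 library per condition there were no replicates, so differences between the lists could not be set against a spread between cultures and no test was made. The 95% intervals given with shares are exact (Clopper-Pearson) and cover counting over peaks only.

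Cohesin is a ring of SMC1, SMC3, RAD21 and a STAG subunit that holds sister chromatids together and extrudes chromatin loops. Loading by NIPBL with MAU2, release by WAPL with PDS5 proteins, and arrest at CTCF sites together decide where along the genome it accumulates. It is often found at CTCF sites, active promoters and enhancers, and entry of fibroblasts into senescence is known to go along with large rearrangements of chromatin folding.

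The label was checked against markers. An SMC1 promoter peak was found at 7 of 11 fibroblast and mesenchyme genes in control and at 4 of 11 in senescent cells, COL1A1, COL1A2, COL6A1 and VIM being in both. In both lists KRT8 was the only one of 7 epithelial markers with such a peak, and none of 5 endothelial and 5 blood markers had one. Over all protein-coding promoters the share with a peak was 31.7% in control and 22.3% in senescent cells, and these marker sets are small for such a comparison. A promoter peak is no measure of expression. The peak on mitochondrial DNA, left out of all comparisons, took 12.4% of the listed signal in the control and 31.4% in the senescent library, and the part of this difference in the results was not tested. In the other libraries of the series it took between 14.4% and 27.7%. The lowest total signal in the lists was 3456 in control and 2796 in senescent cells, and the median width of a peak was 911 and 1005 bp. The number of reads behind each list is unknown here and the signal values have no common scale, so total signal (coverage summed over a peak) and highest signal are given below as percentiles within their own list.

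The promoters of 6 genes whose SMC1 peak was in 1 list only are shown first, as examples of both kinds, and they differ widely in base composition. Each is the 250 bases before a RefSeq transcript start on GRCh38.p14, written 5′ to 3′ on the strand of the gene. Capitals mark a CCAAT box (CCAAT on either strand) or an ETS motif (CCGGAAG on either strand), both of them common elements of promoters. The stretches lie at chr19:18281623-18281872 (JUND, minus strand), chr7:148884292-148884541 (EZH2, minus), chr5:69166900-69167149 (CCNB1, plus), chr5:126776373-126776622 (LMNB1, plus), chr12:68807922-68808171 (MDM2, plus) and chr1:31409527-31409776 (SERINC2, plus).
JUND: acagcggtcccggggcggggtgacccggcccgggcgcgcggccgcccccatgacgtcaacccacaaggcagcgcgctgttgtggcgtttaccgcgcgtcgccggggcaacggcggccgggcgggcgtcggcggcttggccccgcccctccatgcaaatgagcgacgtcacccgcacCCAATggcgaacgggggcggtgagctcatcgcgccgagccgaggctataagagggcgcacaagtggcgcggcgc
EZH2: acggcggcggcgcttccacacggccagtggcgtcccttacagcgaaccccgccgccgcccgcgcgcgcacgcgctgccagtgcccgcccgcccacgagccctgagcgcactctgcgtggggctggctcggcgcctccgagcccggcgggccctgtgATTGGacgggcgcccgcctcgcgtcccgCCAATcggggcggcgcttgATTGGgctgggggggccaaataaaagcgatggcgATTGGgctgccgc
CCNB1: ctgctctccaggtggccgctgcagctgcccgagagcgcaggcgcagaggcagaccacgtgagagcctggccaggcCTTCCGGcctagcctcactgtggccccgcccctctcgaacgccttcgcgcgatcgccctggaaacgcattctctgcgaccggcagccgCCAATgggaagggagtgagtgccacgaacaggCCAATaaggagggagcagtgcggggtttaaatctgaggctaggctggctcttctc
LMNB1: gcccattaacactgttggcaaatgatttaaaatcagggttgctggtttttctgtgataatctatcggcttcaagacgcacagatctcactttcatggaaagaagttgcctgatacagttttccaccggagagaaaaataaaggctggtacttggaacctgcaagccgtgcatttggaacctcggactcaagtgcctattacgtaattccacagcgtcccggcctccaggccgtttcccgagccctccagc
MDM2: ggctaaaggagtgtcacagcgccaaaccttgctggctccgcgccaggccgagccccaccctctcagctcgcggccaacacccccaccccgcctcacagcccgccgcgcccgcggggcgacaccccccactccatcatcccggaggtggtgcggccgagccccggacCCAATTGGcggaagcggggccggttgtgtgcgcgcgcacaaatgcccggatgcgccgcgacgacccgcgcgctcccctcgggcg
SERINC2: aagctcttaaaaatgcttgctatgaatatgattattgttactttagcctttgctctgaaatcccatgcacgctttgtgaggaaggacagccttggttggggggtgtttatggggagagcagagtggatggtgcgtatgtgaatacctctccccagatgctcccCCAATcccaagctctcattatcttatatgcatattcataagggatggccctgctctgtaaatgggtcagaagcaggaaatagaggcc

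The first 4 promoters had a peak in the control list only. JUND codes for an AP-1 subunit, EZH2 for the methyltransferase of Polycomb complex PRC2, CCNB1 for the mitotic cyclin B1 and LMNB1 for lamin B1. The control peak covered all 250 bases at JUND, EZH2 and CCNB1 and 101 of the 250 at LMNB1, and no senescent peak touched any of them. MDM2, a ubiquitin ligase, and SERINC2, a membrane protein, had a peak in the senescent list only, which covered all 250 bases. The GC content of these stretches ran from 46.0% at SERINC2 and 48.4% at LMNB1 to 74.8% at JUND and 75.6% at EZH2, with 65.6% at CCNB1 and 74.4% at MDM2. EZH2 held 4 CCAAT boxes, CCNB1 and MDM2 2 each, JUND and SERINC2 1 each and LMNB1 none. The 2 boxes of MDM2 lie on opposite strands and overlap. Of the 6, CCNB1 alone held an ETS motif.

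Of the 14883 control peaks, 5650 (38.0%, 95% CI 37.2 to 38.7) had no senescent peak over them. Of the 12927 senescent peaks, 3727 (28.8%, 28.1 to 29.6) had no control peak. The matched peaks were 9233 in control and 9200 in senescent cells. Of these, 85 control peaks lay over 2 or more senescent peaks and 114 senescent peaks over 2 or more control peaks. Where peaks matched, their summits, the midpoints of the region of highest signal, lay a median of 55 bp (control) and 54 bp (senescent) from the nearest summit of the other list. Few peaks sat at the edge of the matching rule, since 10 control-only and 9 senescent-only peaks missed a peak of the other list by under 50 bp and 4 one-to-one pairs overlapped by under 50 bp. A gap under 1 kb was found for 295 control-only (5.22%) and 232 senescent-only peaks (6.22%). A gap over 100 kb was found for 1401 (24.8%) and 762 (20.4%), so about as many control-only peaks stood far from any senescent peak as lay within 10 kb of one (1436, 25.4%).

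Unmatched peaks were mostly peaks of low rank. When each list was divided into 10 equal groups by total signal, 68.2% of the control peaks in the lowest group had no match, and 33 of 1488 (2.22%) in the highest. For senescent peaks these shares were 54.5% in the lowest group and 18 of 1292 (1.39%) in the highest. Ranking by highest signal gave 57.6% to 6.51% for control and 56.2% to 2.86% for senescent peaks. The median percentile by total signal was 30.0 for control-only against 64.1 for matched control peaks, and 27.9 for senescent-only against 60.7 for matched senescent peaks.

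**Figure D1:**
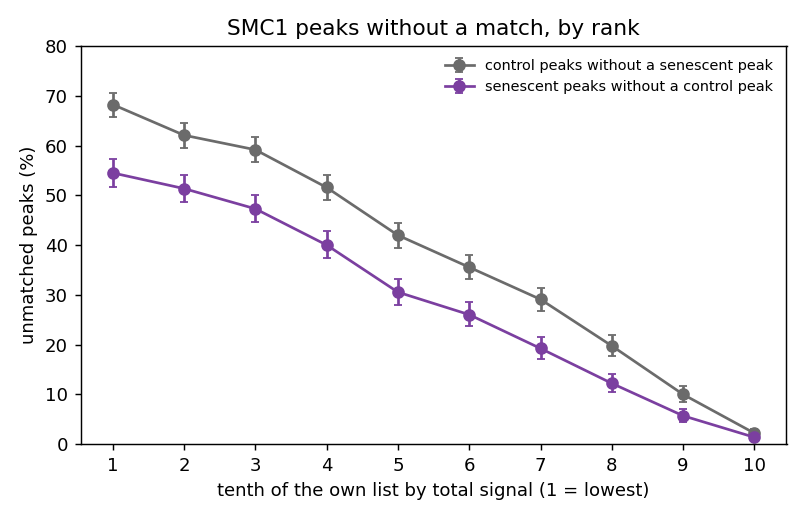
Share of SMC1 peaks without a match (vertical axis, %) in 10 equal groups of their own list ordered by total signal (horizontal axis, 1 is the lowest), with exact 95% intervals as bars. Grey points are control peaks, which go from 68.2% to 2.22%, and purple points are senescent peaks, which go from 54.5% to 1.39% and lie below the grey ones in every group.

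Width went the same way. Among control peaks under 500 bp, 395 of 621 (63.6%) had no match, against 50 of 424 (11.8%) among those of 2000 bp or more. For senescent peaks the shares were 70 of 178 (39.3%) and 35 of 446 (7.85%). Control-only peaks had a median width of 817 bp against 975 bp for matched ones, and senescent-only peaks 945 bp against 1026.5 bp. Each list holds only the regions above its own limit, so the signal of a control-only position in the senescent library, or the reverse, is not shown.

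Peaks under a CTCF peak were matched more often. Of the control SMC1 peaks that overlapped a control CTCF peak, 19.9% (18.7 to 21.3) had no senescent SMC1 peak, against 44.05% (43.1 to 45.0) of those that did not. Of the senescent SMC1 peaks, 19.8% (18.6 to 21.02) with a senescent CTCF peak and 33.5% (32.5 to 34.5) without one had no control SMC1 peak. A CTCF peak of the same condition thus lay under 13.3% of control-only and 32.6% of matched control peaks, and under 23.3% of senescent-only and 38.2% of matched senescent peaks. The CTCF lists differ in length, with 4673 peaks in control and 8577 in senescent cells, and the control CTCF library carries the p number 21, so levels between conditions are not compared here. These shares were not taken at equal rank or width of the SMC1 peaks, so the part of rank and width in them was not tested.

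The ICM list of 17809 SMC1 peaks served as another view of the same positions. It held 3646 of the control-only peaks (64.5%, 63.3 to 65.8) and 40.0% (38.4 to 41.6) of the senescent-only peaks. Of the matched peaks it held 90.3% in control and 90.4% in senescent cells. Control-only peaks at promoters were in the ICM list less often (59.6%, 57.5 to 61.6) than those in gene bodies (67.5%, 65.6 to 69.4) or between genes (69.0%, 66.0 to 71.8), intervals that do not overlap between promoters and either other class. These shares were not taken at equal rank or width, so the part of rank and width in the difference was not tested.

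The 2 kinds of unmatched peaks also differed in their position relative to genes. A promoter peak was one whose summit lay within 1 kb of the outermost annotated 5′ end of a gene, a gene-body peak one whose summit lay elsewhere in a gene, and the rest were between genes. Promoters took 41.2% of matched control peaks and 40.8% (39.5 to 42.1) of control-only peaks, shares whose intervals overlap. They took 40.9% of matched senescent peaks but 15.6% (14.4 to 16.8) of senescent-only peaks. Gene bodies took 55.1% (53.5 to 56.7) of senescent-only and 41.6% (40.4 to 42.9) of control-only peaks, and sequence between genes 29.3% (27.9 to 30.8) and 17.6% (16.6 to 18.6). Summits over 10 kb from any protein-coding 5′ end made up 66.8% of senescent-only, 50.3% of control-only, and 47.1% of matched peaks in either list.

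**Figure D2:**
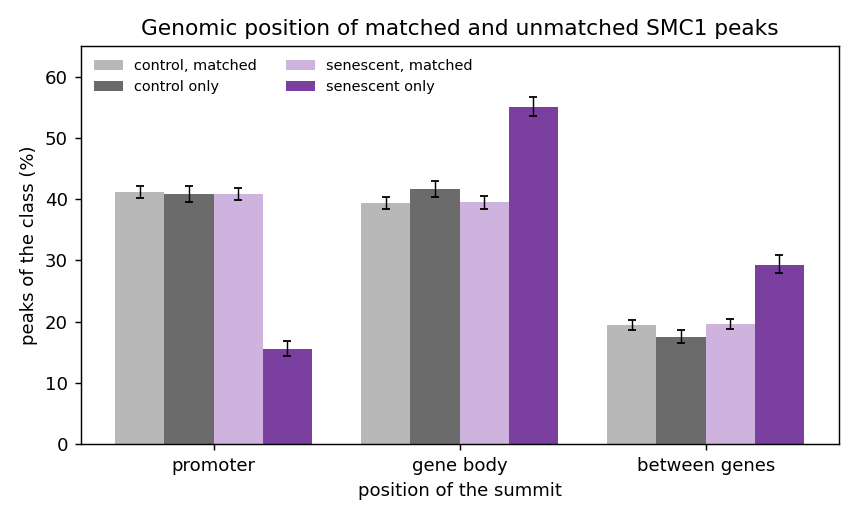
Share of SMC1 peaks (vertical axis, %) whose summit lay at a promoter, in a gene body or between genes, for matched and unmatched peaks of each list, with exact 95% intervals as bars. The senescent-only peaks (dark purple) stand apart, with 15.6% at promoters, while the other 3 classes have 40.8% to 41.2%.

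Expressed by place, the control list had no match for 2305 of 6106 promoter peaks (37.7%), 2353 of 5988 gene-body peaks (39.3%) and 992 of 2789 peaks between genes (35.6%). The senescent list had no match for 580 of 4340 promoter peaks (13.4%), 2054 of 5685 gene-body peaks (36.1%) and 1093 of 2902 peaks between genes (37.7%). Since promoter peaks rank higher than others, the shares were also taken in 3 equal groups of each list by total signal. In the senescent list the unmatched share at promoters was 28.6%, 14.8% and 2.81% from the lowest to the highest group, against 57.8%, 34.5% and 10.98% in gene bodies and 58.1%, 36.4% and 11.96% between genes. The gap was thus present at each level of rank. In the control list the order was the other way round, with 67.6%, 45.5% and 13.7% at promoters, 61.7%, 36.7% and 10.6% in gene bodies and 55.6%, 33.5% and 9.51% between genes.

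At promoters of protein-coding genes, the summit lay upstream of the 5′ end in 69.9% (68.3 to 71.5) of matched and 66.5% (64.4 to 68.6) of control-only control peaks. In the senescent list it lay upstream in 63.1% (61.5 to 64.8) of matched and in 199 of 448 senescent-only peaks (44.4%, 39.8 to 49.2). Senescent-only promoter peaks were thus the one class in which most summits lay at or downstream of the 5′ end. Promoters with a single 5′ end within 2 kb gave 1844 one-to-one pairs, in which the median summit position was 83 bp upstream in control and 81 bp upstream in senescent cells. The median move between the lists was 0 bp. The summit lay over 100 bp further downstream in the senescent list in 337 of these pairs (18.3%) and over 100 bp further upstream in 307 (16.6%). Away from promoters, a summit within 2 kb of a 3′ end was found for 6.99% of senescent-only and 5.35% of control-only peaks, and for 6.94% of matched control and 6.97% of matched senescent peaks.

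**Figure D3:**
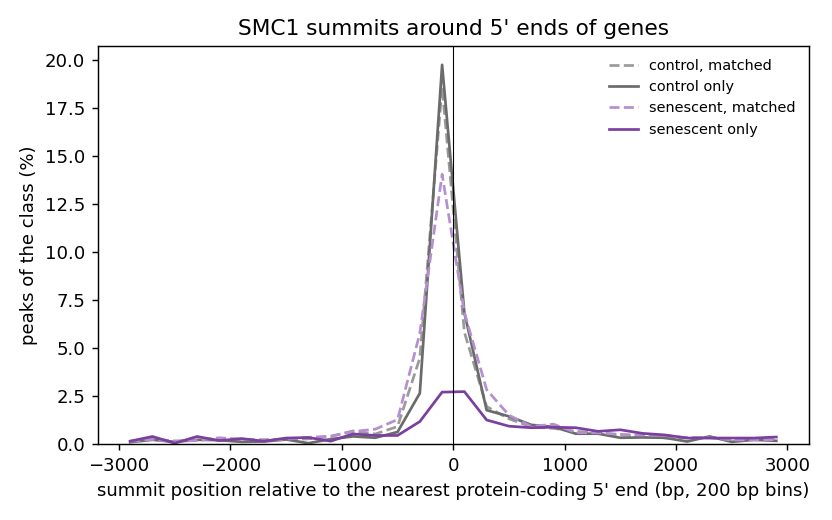
Share of the peaks of each class (vertical axis, %) whose summit falls in each 200 bp bin around the nearest 5′ end of a protein-coding gene (horizontal axis, bp, negative is upstream). The control-only peaks (solid grey) have a maximum of 19.7% just upstream of the 5′ end, close to that of the matched control peaks, while the senescent-only peaks (solid purple) stay under 3%.

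Counted by gene, SMC1 peaks lay at the promoters of 6215 of the 19630 protein-coding genes whose strand was known (31.7%) in control and of 4379 (22.3%) in senescent cells, 3874 being in both. A promoter was called lost when a control peak had its summit there and no senescent peak reached within 1 kb of the 5′ end, gained in the reverse case, and kept when each list had a peak with its summit there. On this rule 2216 of the 6215 control promoters (35.7%) were lost and 461 of the 4379 senescent promoters (10.5%) were gained. The lists below are groups of genes chosen for fibroblasts and senescence, and their counts are to be read against these background shares. Each list held between 9 and 17 promoters with a control peak, which are few for such a comparison. Percentiles of their peaks are by total signal, which grows with width, unless highest signal is named. In all, 193 genes were listed, of which 113 had a control and 74 a senescent promoter peak, and 38 promoters (33.6% of the 113) were lost and 5 gained, close to the shares over all genes.

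Genes of cell division and DNA replication had the highest share of lost promoters among the 9 lists, 8 of the 15 that had a control peak (53.3%). The share over all protein-coding promoters with a control peak was 35.7%, and 15 promoters are few for such a comparison. None of this list was gained. The lost ones were those of CCNA2, CCNB1 and CCNB2, which code for cyclins A2, B1 and B2, of CDC25A and CDC25C, the phosphatases that activate cyclin-dependent kinases, of MCM5 and MCM7, subunits of the replicative helicase, and of BUB1B, a kinase of the spindle checkpoint. Their control peaks ranked from the 16.1th percentile at BUB1B to the 61.8th at CDC25A, so none was among the strongest of the list. In the groups of the control list with these ranks, between 29.1% and 62.1% of all peaks had no match. The ICM list held 3 of the 8. The 7 promoters found in both lists ranked lower by total signal in the senescent one, by 25 points or more in 4 of them. Over all protein-coding promoters in both lists 23.5% fell that far, and one-to-one pairs at promoters changed by a median of -5.15 points. The balance of falls and rises also differs with the set that is ranked, as given below. CDC20, the activator of the anaphase-promoting complex, went from the 83.0th to the 23.5th percentile and CDC6, a replication licensing factor, from the 69.7th to the 25.2th. AURKA, a mitotic kinase, went from 88.4 to 50.9 and TYMS, thymidylate synthase, from 60.1 to 28.8. By highest signal TYMS went the other way, from 11.7 to 20.4. PCNA, the sliding clamp of replication, stayed at the top of both lists (97.2 and 95.6). Counted over promoters and gene bodies together, 8 of the 21 control peaks of these genes were control-only (38.1%), close to the 38.0% over all control peaks, and 1 of the 14 senescent peaks was senescent-only (28.8% over all).

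Among 19 genes of the lamina, HMG proteins and heterochromatin, 3 of 11 control promoters were lost (27.3%, against 35.7% over all control promoters). They were LMNB1 (69.2th percentile), EZH2 (19.6th) and DNMT1 (43.9th), the maintenance DNA methyltransferase. The other 8 were kept, each at a lower rank by total signal in the senescent list. In 3 of the 8 the fall was 25 points or more, against 23.5% over all protein-coding promoters in both lists. By highest signal HMGB1, SUV39H2, CBX1 and CBX3 ranked higher there. HMGA2, an architectural HMG protein, went from 83.8 to 8.90 and EED, a partner of EZH2 in PRC2, from 65.7 to 10.2. CBX1, which codes for the heterochromatin protein HP1β, went from 49.0 to 20.2 by total signal but from 5.47 to 65.4 by highest signal. HMGB1 (90.9 and 85.8), HMGB2 (96.6 and 83.8) and CBX5 (97.8 and 92.0) stayed among the strong peaks of both lists by total signal. By highest signal HMGB1 ranked at 63.5 and 71.5, HMGB2 at 99.5 and 87.4 and CBX5 at 96.6 and 58.3.

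The 15 genes of the cohesin machinery had 10 control promoter peaks, of which 3 were lost (30.0%, against 35.7% over all control promoters) and 7 kept. The lost ones belonged to STAG2, a core subunit (6.38th percentile, near the lower end of the control list), WAPL, the release factor (35.7th), and PDS5A (36.0th). SMC3 went from 84.2 to 31.0 and PDS5B from 77.3 to 34.7, while MAU2, part of the loader, went from 37.9 to 85.8. SMC1A itself ranked at 42.5 in control and 64.1 in senescent cells, and CTCF at 95.7 and 84.6.

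Of 18 genes of cell-cycle arrest, 11 had a control and 8 a senescent promoter peak, and 5 promoters were lost and 2 gained. The lost share was 45.5%, against 35.7% over all control promoters. Over all senescent promoters 10.5% were gained, and 8 promoters are few to set against this. The lost ones were CDKN1B and CDKN1C, which code for the inhibitors p27 and p57 (40.7 and 70.2), RB1 (10.5), CCND1, cyclin D1 (64.3), and CDK6 (50.1). MDM2 was gained at the 62.0th percentile of the senescent list and CDKN2A at the 41.0th. The CDKN2A peak lay at the outermost 5′ end of the gene, where the ARF transcript starts. By highest signal MDM2 ranked at 5.35 and CDKN2A at 11.8, so both were broad and low. GADD45A, a stress-induced gene, went from 98.9 to 71.6 and CDK4 from 76.4 to 29.6, whereas BTG2, an antiproliferative gene, went from 38.4 to 87.8. CDKN2B (96.5 and 91.2) ranked high in both.

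Of 24 genes of the senescence-associated secretory phenotype, 9 had a control and 6 a senescent promoter peak. The lost share was 44.4%, against 35.7% over all control promoters. Over all senescent promoters 10.5% were gained, and 6 promoters are few to set against this. The promoters of CXCL2 (30.1), IGFBP7 (61.1), HGF (25.2) and TIMP1 (40.7) were lost, and those of the chemokine gene CCL2 and the cytokine gene LIF were gained at the 15.6th and 14.2th percentile, near the lower end of the senescent list. IL6 ranked at 92.4 in control and 86.7 in senescent cells. IGFBP3, which binds insulin-like growth factors, went from 86.4 to 50.2.

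Extracellular matrix genes had 17 control promoters, of which 5 were lost (29.4%, against 35.7% over all control promoters) and none was gained. The lost ones ranked above the middle of the control list by total signal. They were at 92.0 for LOX, a collagen cross-linking enzyme, 83.2 for FN1 (fibronectin), 72.0 for BGN, 71.5 for TNC and 67.0 for COL5A2. By highest signal LOX and FN1 ranked at 75.8, BGN and COL5A2 at 35.1 and TNC at 11.7. FBN1, which codes for fibrillin 1, went from 93.0 to 49.4 and COL5A1 from 96.9 to 70.5. By highest signal COL5A1 went the other way, from 63.5 to 71.5. COL1A1 (88.4 and 98.9), COL1A2 (98.9 and 81.8) and THBS1 (99.96 and 99.98) were high in both. COL6A1 went from 19.8 to 88.3 by total signal and from 35.1 to 20.4 by highest signal. Its control and senescent peaks do not overlap and lie 142 bp apart, so that it has both a control-only and a senescent-only peak.

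In the list of AP-1 and immediate early genes, 2 of 11 control promoters were lost (18.2%, against 35.7% over all control promoters). They were JUND (95.6) and IER3 (70.7). JUN (99.9 and 99.8), EGR1 (99.5 and 98.5) and MYC (99.7 and 98.7) were at the top of both lists by total signal, and IER2 went from 60.4 to 0.948. By highest signal JUN ranked at 99.2 and 96.5, EGR1 at 66.4 and 65.4, MYC at 83.9 and 71.5 and IER2 at 52.9 and 40.1. Actin and mechanosensing genes lost 3 of 16 (18.75%) and gained ACTB at 32.1. Those lost were TPM2 (84.2), a tropomyosin, TEAD1 (80.1), the partner of YAP1, and CCN1 (77.4), a YAP1 target. ACTA2, smooth-muscle actin, went from 76.3 to 48.4 and MYL9, a myosin light chain, from 12.7 to 80.9. Transcription factors of mesenchyme lost 5 of 13 (38.5%), TWIST1 (47.4), TWIST2 (45.8), HOXA5 (70.3), NR2F1 (62.7) and KLF2 (60.3), and gained none. TBX2, a T-box factor of lung mesenchyme, went from 98.0 to 25.9 and CEBPB from 94.7 to 57.3. Over promoters and gene bodies, the 20 mesenchyme genes held 11 control-only beside 16 matched control peaks (40.7% control-only), near the share of 38.0% over all control peaks. They held no senescent-only beside 17 matched senescent peaks, where the share over all senescent peaks was 28.8%. The 24 actin genes held 11 control-only beside 32 matched control peaks (25.6%, against 38.0% over all). They held 11 senescent-only beside 30 matched senescent peaks (26.8%, near the 28.8% over all).

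The 38 lost promoters of the lists had a median control percentile of 51.7, against 38.0 over all 2216 lost promoters, and 57.9% of them were in the ICM list, against 58.7%. Across the 193 genes, promoters found in both lists ranked lower by at least 25 points in 19 and higher in 4 of 68. Over all 3874 protein-coding promoters in both lists, 911 (23.5%) ranked lower and 361 (9.32%) higher by that much.

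The control-only promoter peaks of highest total signal lay at ZSWIM6 (96.1th percentile), CEBPD, a transcription factor of the acute-phase response (95.9), JUND (95.6), the start shared by WBP4, a splicing factor, and the ETS factor gene ELF1 (95.4), ESYT2, a tether between the endoplasmic reticulum and the plasma membrane (93.6), PITRM1, a mitochondrial protease (93.0), TUBGCP5, a γ-tubulin complex protein (92.7), and the start shared by C11orf71 and RBM7 (92.5). All 8 were in the ICM list. The peak at JUND spanned chr19:18280970-18282577 with a total signal of 17381 and a highest signal of 42. The nearest senescent peak lay 5.26 kb away, and both control and senescent CTCF lists held a peak there. The peak at CEBPD, chr8:47737228-47739525, was 2298 bp wide with a senescent peak 1.71 kb away. At TUBGCP5 the nearest senescent peak lay 150.3 kb away.

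Inside genes, the control-only peaks of highest rank lay in SHROOM3, an actin-binding protein (97.5), PHF2, a histone demethylase (96.9), BDNF, a neurotrophin (96.9), and GSTO2 (96.3). Between genes, the highest one lay at chr14:75258460-75259847, 19539 bp from the 5′ end of FOS (95.6), followed by peaks nearest to KLF7 (90.2), CHRNA1 (89.97) and SLC39A10 (88.9). Of these 8 peaks, 7 were in the ICM list, and that in PHF2 was not.

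The senescent-only promoter peaks of highest total signal lay at MVP, the major vault protein (92.5), SNX33, a sorting nexin (91.1), SERINC2 (88.8), COL6A1 (88.3), FAM131A (88.2), SLC16A13, a monocarboxylate transporter (87.1), INSRR, a receptor of the insulin receptor family (86.6), and TBC1D9 (86.0). The ICM list held 6 of the 8, those at MVP and FAM131A being the exceptions. They were 1205 to 2867 bp wide, against a median of 1005 bp over all senescent peaks. By highest signal they ranked between 20.4 and 76.9, while the 8 control-only promoter peaks ranked between 48.9 and 97.2 in their own list. Those at SLC16A13 (76.9) and INSRR (65.4) ranked above the middle of the senescent list, and the others at 40.1 or below. The MVP peak spanned chr16:29819338-29822204 (2867 bp) and its highest signal was 8.

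Inside genes, the highest senescent-only peaks lay in the imprinted ZIM2 and PEG3 region (96.2), COL1A1 (95.9), PLXNB2, a semaphorin receptor (95.4), and SESN3, a stress-induced sestrin (94.0). The COL1A1 peak, chr17:50194861-50198837, was 3977 bp wide and ranked at the 5.35th percentile by highest signal, with a control peak 0.912 kb away. That in SESN3 was narrower (1568 bp) and ranked at the 97.0th percentile by highest signal. Between genes the 4 highest included those nearest to CPXM2 (97.7), PPP1R3C, a glycogen-targeting subunit of protein phosphatase 1 (96.3), and RAB44 (92.9). Of the 8 highest peaks in gene bodies and between genes, 3 were in the ICM list and 5 overlapped a senescent CTCF peak. At 3′ ends, senescent-only peaks were seen within IGFBP5 (79.3) and past COL1A2 (76.9), chosen after their values were seen, and a control-only peak of the 70.4th percentile lay 1.43 kb from the former.

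The genes with the most unmatched peaks spanned between 129.6 kb (SMAD3) and 1123 kb (RANBP2) in the RefSeq table. KCNMA1, a potassium channel gene of 768.2 kb, held 7 control-only and 6 senescent-only peaks beside 5 control peaks with a match. SMAD3, the transducer of TGF-β signals, held 6 control-only and no senescent-only peak, while 5 of its control peaks were matched. CTIF, FARP1, FRMD6, PALM2AKAP2, RANBP2 and TNS3 also held 6 control-only peaks each, with 1 to 4 senescent-only ones. ZMIZ1, a transcriptional coregulator, held 6 senescent-only peaks and 1 control-only peak, with 12 control peaks matched. CDH4, which codes for a cadherin, held 5 senescent-only peaks and 1 control-only peak, and none of its peaks was matched. CACNA1C, GSE1, SH3PXD2A and SMG6 held 5 senescent-only peaks each.

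Chromosome X stood apart in the control-only share. It held 180 control, 165 ICM and 99 senescent SMC1 peaks, a senescent to control ratio of 0.550, while autosomes had ratios between 0.742 (chromosome 4) and 1.05 (chromosome 22). Of its control peaks, 106 (58.9%, 51.3 to 66.2) were control-only, against 27.0% (chromosome 22) to 47.2% (chromosome 4) on autosomes. Its senescent-only share, 25 of 99 (25.3%, 17.1 to 35.0), lay within the range of 24.7% to 32.3% found on autosomes. By place, 61 of 94 promoter peaks (64.9%), 29 of 56 gene-body peaks (51.8%) and 16 of 30 peaks between genes (53.3%) were control-only. Counted by gene, 65 of the 102 X-linked promoters with a control peak were lost (63.7%), among them STAG2, TIMP1 and BGN. The control peaks of X ranked lower than those of autosomes, with a median percentile of 41.6 against 50.1, and the part of this rank in the share was not tested.

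**Figure D4:**
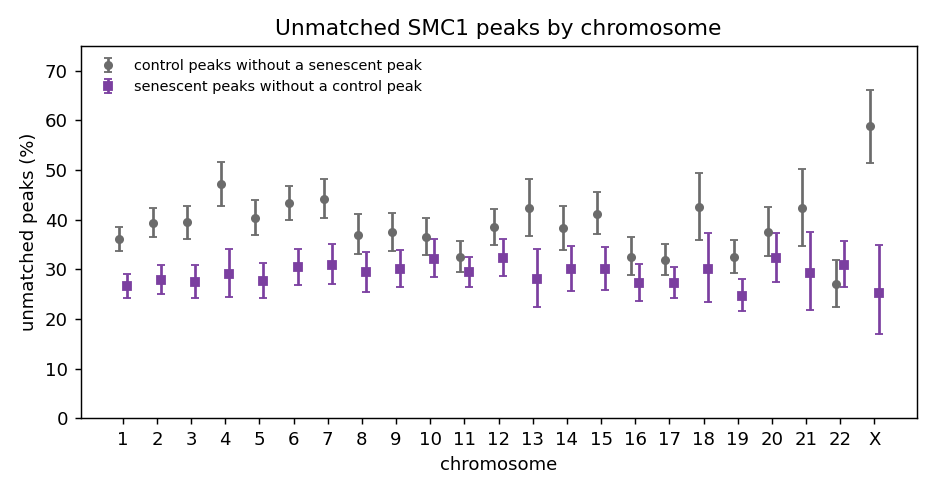
Share of unmatched SMC1 peaks (vertical axis, %) on each chromosome (horizontal axis), with exact 95% intervals as bars, for control peaks (grey circles) and senescent peaks (purple squares). The control share of chromosome X, 58.9%, lies above that of every autosome, and its senescent share of 25.3% does not stand out.

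Of the matched peaks, 8923 pairs were one-to-one, each peak overlapping exactly 1 peak of the other list. Their percentiles by total signal had a Spearman rank correlation of 0.553 and those by highest signal one of 0.578, given as descriptions over pairs that share both libraries. A change of 25 points or more was found in 3027 pairs (33.9%, 32.9 to 34.9), of which 1707 (19.1%) ranked lower and 1320 (14.8%) ranked higher in the senescent list. When ranks were taken among the pairs alone, 1499 (16.8%) ranked lower and 1529 (17.1%) higher, so the balance between the directions differed with the set that was ranked. Of the pairs that ranked lower by total signal, 87.6% also ranked lower by highest signal, and of those that ranked higher, 88.2% also did so.

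Position and rank went together here too. At promoters 23.4% (22.03 to 24.8) of 3673 pairs ranked lower and 10.4% (9.43 to 11.4) higher by 25 points, with a median change of -5.15 points. In gene bodies the shares were 16.1% and 17.7% and the median change 0.448 points, and between genes 16.3% and 18.3% and -0.358 points. Promoter peaks rank higher than others, and a pair near the top of the control list cannot rise by 25 points. The shares by place were not taken at equal starting rank or among pairs alone, so the part of starting rank was not tested. Pairs over a control CTCF peak changed less often, 15.8% ranking lower and 11.8% higher, against 20.7% and 16.2% without one. Pairs that ranked lower had median widths of 989 bp in control and 856 bp in senescent cells, and those that ranked higher 830.5 and 1118 bp. Over all pairs the senescent peak was the wider one in 56.6%. It was the wider one in 82.5% of the pairs that ranked higher, and the control peak in 68.2% of those that ranked lower. Total signal is summed over the peak, so width enters this rank by construction.

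**Figure D5:**
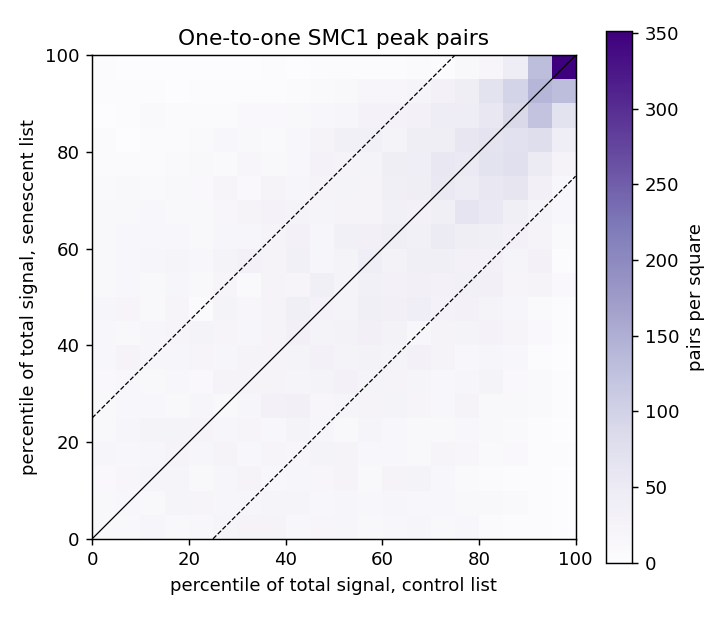
Number of one-to-one pairs (shade) by percentile of total signal in the control list (horizontal axis) and in the senescent list (vertical axis), in squares of 5 by 5 points. The solid line marks equal ranks and the dashed lines a change of 25 points, beyond which 1707 pairs lie below and 1320 above, while pairs at the top of both lists are the most frequent.

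The 6 pairs with the largest loss of rank at promoters included those of NRP2, a co-receptor of semaphorins and VEGF, EMP1, CPEB2, a translational regulator, TCF25 and ZBTB21. At NRP2 the control peak (2661 bp, total signal 18897) ranked at 96.6 and the senescent peak (723 bp, 2979) at 10.1. EMP1 went from 87.9 to 4.45. All 6 control peaks were in the ICM list. The largest gains at promoters were at LENG9 (3.42 to 93.2), SLC12A4, a potassium-chloride cotransporter (13.8 to 95.1), CSF1R, the receptor of macrophage colony-stimulating factor (4.41 to 84.2), the shared start of RNASE4 and ANG, which codes for angiogenin (15.0 to 94.2), MRPS26, a mitochondrial ribosomal protein (5.50 to 84.2), and AKR1A1, an aldo-keto reductase (2.66 to 81.3). Of these, the ICM list held AKR1A1 alone, and the senescent peaks were between 1008 and 3076 bp wide. In each named pair, falling or rising, the weaker peak was near the lower end of its list. The senescent peak of EMP1 had a total signal of 2871, where the lowest in its list was 2796. The control peak of LENG9 had 3555, where the lowest was 3456.

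Away from protein-coding promoters, the largest losses lay in GRK5, a kinase of G protein-coupled receptors (93.9 to 3.05), in the RNA gene LOC105370777 (92.8 to 3.13) and in TARID, an antisense RNA gene next to TCF21 (91.6 to 7.26). The largest gain (1.67 to 94.4) lay between genes, 231047 bp from the nearest protein-coding 5′ end, that of SHCBP1. It was followed by gains in AHDC1 (4.30 to 96.0) and 3889 bp from the 5′ end of RHOB, a small GTPase (1.05 to 92.6). In each of these pairs the weaker peak was near the lower end of its list.

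Sequences around transcript starts were compared between lost, gained and kept promoters, using RefSeq stretches of 300 bases (250 before to 50 after the start) that were matched for 1876 of 2216 lost, 365 of 461 gained and 3310 of 3874 kept promoters, and for 15812 of all 19630. Base composition hardly differed between the 3 classes. The median GC content was 66.0% at lost, 65.3% at gained and 65.7% at kept promoters, against 60.0% at promoters without an SMC1 peak, and the median number of CpG dinucleotides was 28, 25, 26 and 16. The ETS motif was found in 24.8% (22.8 to 26.8) of lost, 18.1% (14.3 to 22.4) of gained and 19.1% (17.8 to 20.5) of kept promoters, and in 14.1% of all promoters. The CCAAT box was found in 37.05% (34.9 to 39.3) of lost, 37.5% (32.5 to 42.7) of gained and 44.8% (43.1 to 46.5) of kept promoters, and in 36.4% of all. For both motifs the intervals of lost and kept promoters do not overlap, but these intervals cover counting over promoters only. The motif shares were not taken at equal rank or width of the SMC1 peaks. The part of rank and width in these differences was therefore not tested.

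The other 4 motifs searched, each on both strands, had overlapping intervals in lost and kept promoters. A core of the CTCF motif was in 15.6% of lost and 15.7% of kept promoters (12.9% of all), the AP-1 motif TGANTCA in 3.94% and 3.87% (5.70%), the E2F motif TTNGCGC in 14.4% and 14.2% (10.3%), and the cell-cycle element TTTGAA in 9.65% and 8.10% (12.2%). The E2F motif and the cell-cycle element are linked to genes of cell division. A match describes letters in the window and is no measure of binding.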

How the data were processed

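IMR90 were profiled with CUT&Tag for CTCF and SMC1, 1 library for each antibody in control, ICM-treated and senescent cells. According to the methods of the study, the authors mapped reads to hg38 with Bowtie 2, calibrated them with E. coli reads and called peaks at a threshold of 1%. The submitters' processing notes name Bowtie2 2.3.4.1, Picard 2.20.7, deepTools and SEACR 1.3. The deposited lists give for each peak its position, the total and the highest signal as whole numbers and the region of highest signal, and these signal values were used only as percentiles within a list. The reads per library are not in the lists.

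Overlaps, ranks and intervals were computed with Python 3.11.15, pandas 2.3.3 and SciPy 1.17.1, and the overlap code was tested on simulated peaks. Genes came from RefSeq (GRCh38.p14). The 5′ end needs the strand, which came from the RefSeq promoter table or, by symbol and chromosome, from GENCODE v44. It was known for 47057 of 59098 genes, and 19974 genes code for protein, 19630 of them with a strand. Promoters inside genes were not counted. The genome sequence at hand was of another build, so peak sequences were not read.

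Peaks were named by a rule, which took among unmatched peaks of each list the 8 of highest total signal at protein-coding promoters, the 4 highest in gene bodies and the 4 highest between genes. Among pairs it took the 6 largest changes of rank each way at protein-coding promoters and the 3 largest elsewhere, and among genes the 5 with the most unmatched peaks of each list, with ties. Members of the gene lists were named where they were lost, gained or kept. The members, the gene lists and the rule were chosen with earlier results of these data known. Some genes that the rule or the lists name are not reported here.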

Additional observations from a re-analysis of the deposited data

Results flagged for a closer look

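The single peak on mitochondrial DNA lay outside the comparison of nuclear peaks and was above the control level in the senescent SMC1 library, where it took 31.4% of the listed signal against 12.4% in control. It took 20.6% in the ICM SMC1 library. For CTCF the order was reversed, with 18.0% in senescent cells, 27.7% in control and 14.4% after ICM. With 1 library per condition, its part in the nuclear results was not tested.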

How the results depend on the processing

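With 1 library per condition no value below was tested, the depth of the lists is unknown and limits what a missing peak means, and leaving out a library was not possible. No paired analysis was possible because each condition has a single library. The 5 shares were recomputed under 25 alternatives and moved by more than their counting interval in 22.

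The control-only share of 38.0% became 57.7% when 100 bp windows around summits had to overlap, 44.7% with a reciprocal overlap of 50%, and 36.0% when a gap of up to 1 kb was allowed. The senescent-only share of 28.8% became 51.3%, 36.3% and 27.0% in the same order. In the upper 50% of each list by total signal the shares were 19.3% and 12.9%. When both lists had the 12927 peaks of highest total signal they were 33.5% and 33.6%, and by highest signal 35.0% and 35.1%. Equal lengths bring the 2 shares together by construction, since nearly as many peaks are then matched on either side, so the order of the 2 shares rests on the list lengths.

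The promoter share of control-only peaks, 40.8%, became 46.2% with 5′ ends within 2.5 kb, 42.7% when the whole peak counted, 35.7% with protein-coding genes alone, 42.7% with summit windows and 43.8% with equal lengths. That of senescent-only peaks, 15.6%, became 24.3%, 19.4%, 12.02% and 28.6% under the first 4 of these, and 16.7% with equal lengths. It stayed below the control-only share in each case, and summit windows narrowed the difference most. The cause was not tested. The share of pairs with a change of 25 points, 33.9%, was 32.2% by highest signal, 33.9% among pairs alone and 33.7% among pairs with overlapping summit windows.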
